A study of Gallus gallus and Anas platyrhynchos and Coturnix japonica with 11 samples.

Results

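miR-146 is a small family of microRNAs, short RNAs that pair through their seed, bases 2 to 8 from the 5′ end, with messenger RNAs and lower their output. The family had 3 entries among the 186 mature miRNAs of the deposited files: miR-146a, miR-146b and miR-146c. They were taken by their miRNA number, whatever the prefix or letter, and the pair of miR-146a and miR-146b was singled out because of measured values, an abundant a copy and a b copy that differed between duck and chicken. Differences between species in these members are therefore given as a description, with no test. No star strand of the family was among the entries. All 3 entries exceeded 15 PMMR (the study's normalised read count, here scaled to 1000000 reads left after adapter removal), the study's limit of detection, in all 10 samples.

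Small RNAs were sequenced from mesenchyme of the frontonasal prominence (FNP), a neural crest tissue that builds the mid and upper face, of duck, quail and chicken embryos at Hamburger-Hamilton stages HH25 and HH20. No embryo was treated or genetically altered. Duck and chicken had 2 biological samples at each stage, the first from 40 pooled embryos and the second from 5, and quail had 1 sample of 40 pooled embryos at each stage. Each sample is a pool, so variation between embryos was not measured, and fewer cells of a type cannot be told apart from less RNA per cell. The second chicken HH25 sample had 2 sequencing runs, and their mean served as a single sample. Nothing in the labels ties samples of equal number to a shared batch, and p-values measure the spread between these pools.

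In mammals, miR-146a is known as a miRNA switched on by Toll-like receptor and NF-kB signalling. It then dampens the same pathway by repressing the signalling adaptors TRAF6 and IRAK1. miR-146b comes from a separate gene, carries the same seed, and can therefore pair with many of the same messages. The genes were matched by miRNA name in the RefSeq table of the chicken assembly bGalGal1.mat.broiler.GRCg7b, where all 3 were found. That is a later assembly than the study's, so no coordinates are given. MIR146A lay within the long non-coding RNA LOC121106732, between the protein-coding genes ATP10B and PTTG2. MIR146B overlapped LOC121113369 and had SLF2 as the nearest coding gene on one side. MIR146C-1 lay within DDRGK1. The copies thus sit beside different genes.

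The mature sequences of the deposited files are shown, 5′ to 3′, because the members differ only near their 3′ ends. The capitals mark the seed.
miR-146a: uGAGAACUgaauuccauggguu
miR-146b: uGAGAACUgaauuccauaggcg
miR-146c: uGAGAACUgaauuccauggacug
miR-146a and miR-146b are 22 bases long and miR-146c is 23. No other entry of the 186 carries this seed. Counted from 1 at the 5′ end, with no gaps, miR-146a and miR-146b share their first 17 bases and differ at 3 positions, G18A, U21C and U22G, with the base of miR-146a first. miR-146a and miR-146c share their first 19 bases and differ at 2, G20A and U21C, and miR-146c has an additional base at its end. These are chicken sequences. Duck and quail reads were assigned to them with up to 2 mismatches allowed, and the duck and quail sequences themselves were not examined here.

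The libraries held 3097711 to 10894243 reads, so that 1 read was worth 0.0918 to 0.323 PMMR. The listed miRNAs took 70.0 to 85.1% of the reads in duck, 59.8 and 73.8% in quail and 53.5 to 71.5% in chicken. The first chicken HH25 sample stood apart. In it 45 of the 186 miRNAs lay more than 4-fold away from their mean elsewhere (on the log2 scale), against 3 to 13 miRNAs for any other sample. Its summed level of miR-199 and miR-199*, the mesenchyme markers, was 315 PMMR, against 6277 to 24112 PMMR in the other samples. The main results for miR-146b are given with and without it, whereas the medians of the marker lists are given only with it.

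miR-146a was among the most abundant miRNAs in every species. At HH25 it had 30769 PMMR in the first duck sample and 59004 PMMR in the second, and at HH20 57560 and 60226 PMMR. In quail it had 48752 PMMR at HH25 and 49111 PMMR at HH20. In chicken the HH25 samples had 39674 and 68317 PMMR and the HH20 samples 44126 and 45759 PMMR. The species overlapped, and both quail samples lay inside the chicken range. Over stages, miR-146a averaged 51890 ± 14122 PMMR in duck (SD, n = 4), 48932 ± 254 PMMR in quail (n = 2) and 49469 ± 12826 PMMR in chicken (n = 4). It was the most abundant of all 186 entries in 5 of the 10 samples, and its lowest rank was 9, in the first duck HH25 sample.

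**Figure D1:**
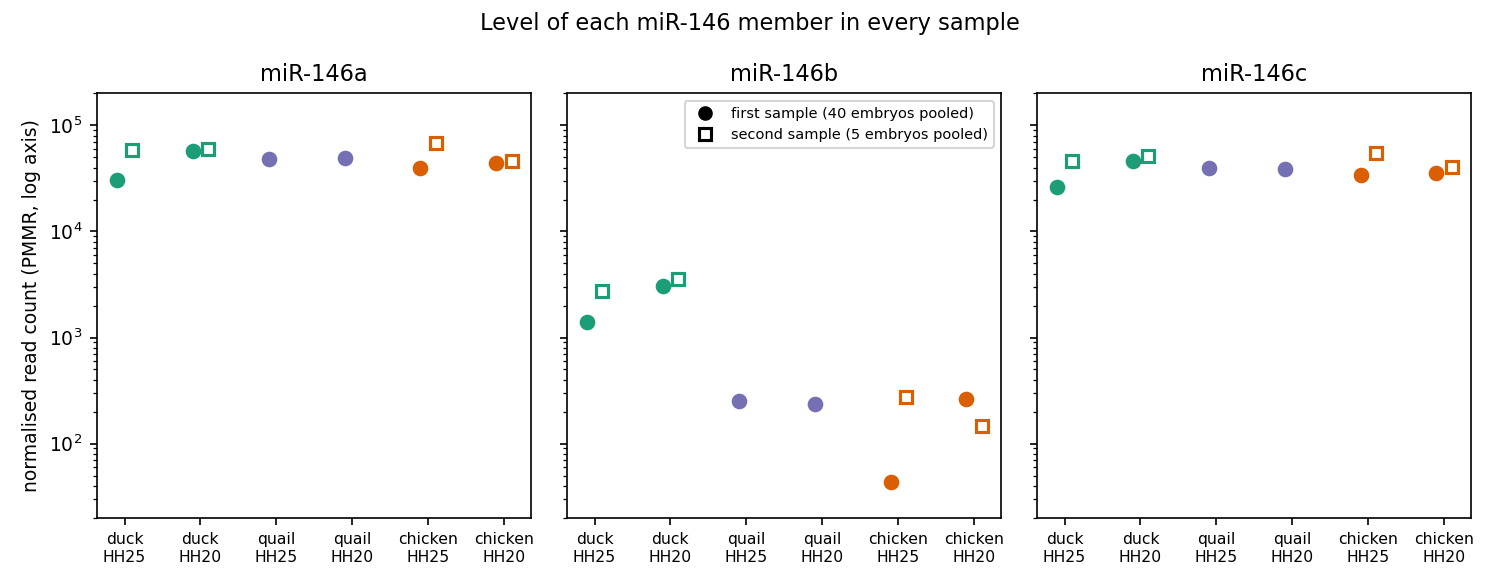
Normalised read count in PMMR on a log axis for miR-146a, miR-146b and miR-146c, with species and stage along the horizontal axis. Each point is 1 sample, filled for the first and open for the second, and the 4 duck samples stand above every quail and chicken sample for miR-146b alone.

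miR-146b was far less abundant and was the member for which the duck samples did not overlap those of quail and chicken. In duck it had 1394 and 2752 PMMR at HH25 and 3041 and 3534 PMMR at HH20. In quail it had 254 PMMR at HH25 and 236 PMMR at HH20. In chicken it had 43.5 and 276 PMMR at HH25 and 263 and 145.7 PMMR at HH20. The lowest duck sample was 5.05-fold above the highest chicken sample and 5.48-fold above the highest quail sample, whereas quail lay within the chicken range. The counts behind these levels were ample, from 159 reads in the first chicken HH25 sample, with a 95% Wilson interval of 37.2 to 50.8 PMMR, up to 32727 reads in the second duck HH20 sample. Such intervals cover counting error only, not reads of one member assigned to another. By abundance miR-146b ranked 37 to 49 in duck, 84 and 94 in quail and 74 to 135 in chicken.

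Matched by stage and by sample number, miR-146b was 32.1-fold and 9.97-fold higher in duck than in chicken at HH25, and 11.6-fold and 24.2-fold higher at HH20. Against quail it was 5.48-fold higher in duck at HH25 and 12.9-fold higher at HH20. The 32.1-fold value uses the first chicken HH25 sample. Samples of equal number were not taken as pairs, so these folds of miR-146b depend on the matching. The mean log2 ratio of duck to chicken was 4.11, or 17.3-fold, with an SD of 1.05 between samples of a group. It was 3.53 without the first chicken HH25 sample. The same mean log2 ratio was 0.05 for miR-146a and 0.02 for miR-146c, both far below their SDs of 0.43 and 0.40. The median miRNA stood at 0.21, and the signs for miR-146a and miR-146c turned to -0.11 and -0.14 when each sample was centred on its median, while miR-146b stayed at 3.95. Scaled to the reads on the listed miRNAs, the values were -0.25 for miR-146a, 3.81 for miR-146b and -0.28 for miR-146c.

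As background to that difference, 19 of the 186 entries, 10.2%, had every duck sample above every chicken sample. In the limma fit of duck minus chicken, 18 entries, 9.68%, passed an adjusted p of 0.05, 12 of them higher and 6 lower in duck. Centring each sample on its median left 10 calls, 3 higher and 7 lower. An unadjusted p under 0.05 was reached by 42 of the 186, and voom on the recovered reads called 22. By estimated difference miR-146b was entry 2 from the top of the 186, miR-146a entry 107 and miR-146c entry 113. miR-146b was selected on this contrast, so nothing is read from its place.

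The ratio of the b copy to the a copy within a sample does not depend on how libraries are scaled. In duck miR-146b reached 4.53 and 4.66% of miR-146a at HH25, and 5.28 and 5.87% at HH20. In quail it reached 0.522% at HH25 and 0.480% at HH20. In chicken it reached 0.110 and 0.404% at HH25, and 0.596 and 0.318% at HH20. The lowest duck ratio was 7.61 times the highest chicken ratio. The duck ratios stayed within 1.29-fold of each other, although the level of miR-146a itself varied 1.96-fold over the duck samples, and the chicken ratios spread 5.44-fold, or 1.87-fold without the first HH25 sample.

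**Figure D2:**
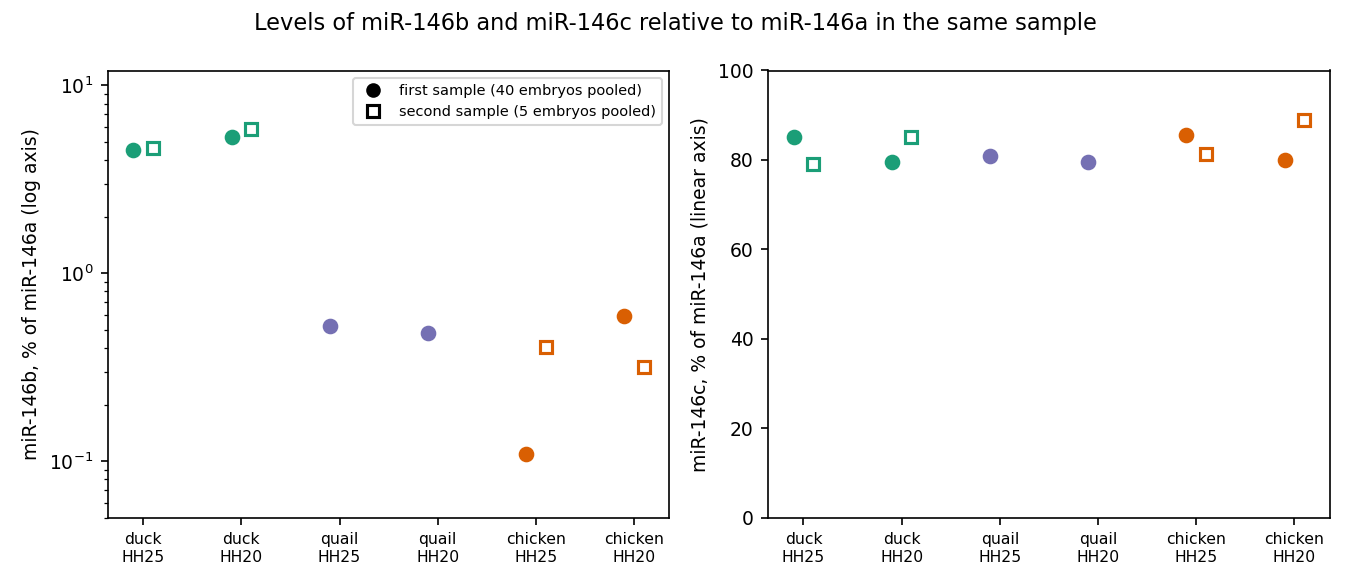
Level of miR-146b (left, log axis) and of miR-146c (right, linear axis from 0) as a percentage of miR-146a in the same sample, by species and stage. miR-146b lies between 4.53 and 5.87% in duck and at or below 0.596% elsewhere, while miR-146c lies between 79.2 and 88.9% in all 10 samples.

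miR-146c followed miR-146a almost exactly. At HH25 it had 26167 and 46703 PMMR in duck, 39398 PMMR in quail, and 33936 and 55510 PMMR in chicken. At HH20 it had 45844 and 51278 PMMR in duck, 39107 PMMR in quail, and 35345 and 40658 PMMR in chicken. Its ratio to miR-146a ran from 79.2 to 88.9% over all 10 samples, with an SD of 0.06 for the log2 ratio. Among the 42 pairs of entries that differ by at most 2 mismatches, this was rank 5 from the smallest SD, and the median SD was 0.50.

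Elsewhere in the files, a pair of entries held the same reads under both names. The star strands of miR-193a and miR-193b showed 0 mismatches and had equal reads in all 11 libraries. miR-204 and miR-211 also showed 0 mismatches, a count that leaves out any difference in length. Their log2 ratio had an SD of 0.02, but their reads were equal in 0 of the 11 libraries. The reads of miR-146a and miR-146c were also equal in 0 of the 11. The 2 bases that separate miR-146c from miR-146a are as many as the mapping allowed. The level of each of the 2 entries is therefore uncertain, and the 2 entries are not summed here. Whether they shared reads was not tested. miR-146b is 3 mismatches from miR-146a over the full length of the chicken sequences. Positions 21 and 22 are its last, so a read that lacks them would differ at fewer positions. Whether reads of miR-146a were counted as miR-146b, in duck or elsewhere, was not tested. The log2 ratio of miR-146b to miR-146a had an SD of 2.08, a spread that the choice of this pair fixed and from which nothing is read.

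**Figure D3:**
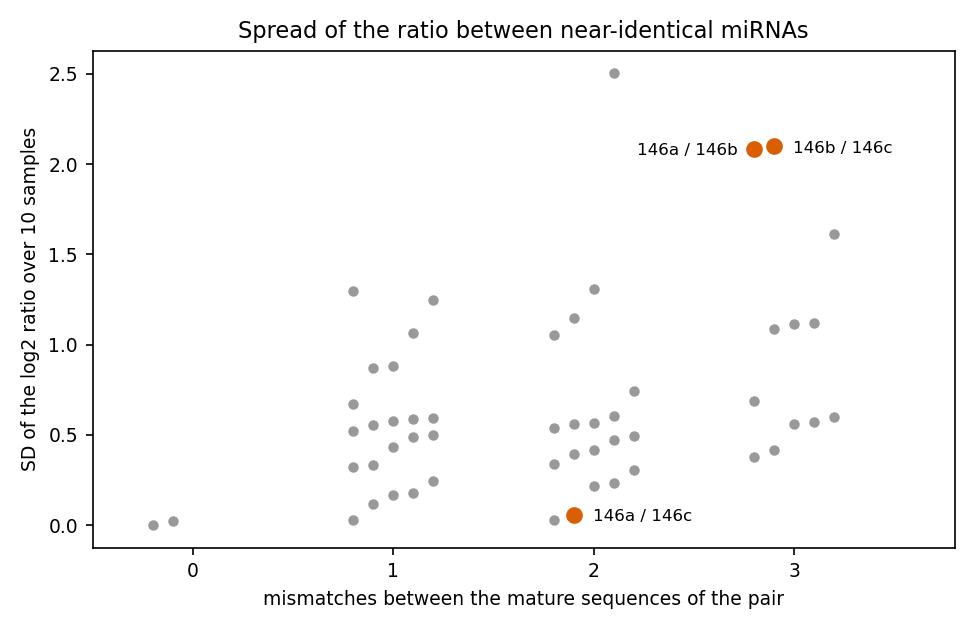
SD over 10 samples of the log2 ratio between the members of each pair of near-identical miRNAs, by the number of mismatches between their mature sequences. Each point is 1 pair, with the miR-146 pairs coloured and named. miR-146a and miR-146c sit at 0.06, and miR-146a and miR-146b, a pair chosen for differing between species, sit at 2.08.

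The stage of the embryo was not used to choose the members, so changes between HH25 and HH20 were tested. No member passed the test in any of the fits. Over all species, with species as a term, the log2 difference of PMMR + 1 for HH25 minus HH20 was -0.10 ± 0.28 (SE) for miR-146a, with an adjusted p of 0.865 by limma and a 95% interval of -0.72 to 0.52. For miR-146b it was -0.61 ± 0.48, with an adjusted p of 0.492 and an interval of -1.68 to 0.47. Leaving out the first chicken HH25 sample brought it to -0.17, and leaving out the second to -0.98. For miR-146c it was -0.11 ± 0.27, with an adjusted p of 0.855. In this fit 6 of 186 entries, 3.23%, passed, and the median over all entries was 0.06.

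Within duck, miR-146b had -0.74 ± 0.84 on the log2 scale, with a limma adjusted p of 0.951. The estimate was -0.25 without the first duck HH25 sample and -1.23 without the second. miR-146b was 2.18-fold lower at HH25 than at HH20 between the first samples and 1.28-fold lower between the second samples. Within chicken, miR-146b had -0.83 ± 0.84, with a limma adjusted p of 0.699, and the samples went opposite ways. The first sample was 6.05-fold lower at HH25 and the second 1.89-fold higher. Without the first chicken HH25 sample the estimate was 0.49 with an adjusted p of 0.904. Without the second it was -2.15 with an adjusted p of 0.003, where the lone HH25 library left, the one that stands apart, is assumed to vary like the other groups. The sign of the estimate thus rests on a single library. For miR-146a the estimates were -0.47 ± 0.51 in duck and 0.21 ± 0.51 in chicken, with limma adjusted p values of 0.951 and 0.858.

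The stage changes of duck and chicken were also compared with each other. The difference, duck minus chicken, was -0.68 ± 0.72 for miR-146a, 0.08 ± 1.18 for miR-146b and -0.67 ± 0.69 for miR-146c, each with a limma adjusted p of 0.996. The interval for miR-146b, -2.62 to 2.79, is wide. Its estimate was -1.24 without the first chicken HH25 sample and 1.40 without the second. In the fits within chicken, within duck and between them 0 of 186 entries passed, or 0%. At an unadjusted p under 0.05 there were 21, 9 and 1 entries, none of them a member, and limma voom on the recovered reads also called 0 in each.

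The log2 ratio of miR-146b to miR-146a, taken as HH25 minus HH20, was -0.28 in duck, 0.12 in quail and -1.05 in chicken. Their mean was -0.40, with p = 0.389 by a two-sided exact permutation test of stage within species over 72 arrangements. The smallest p this design can give is 0.0278. Without the first chicken HH25 sample the mean was -0.09, with an exact permutation p of 0.778.

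**Figure D4:**
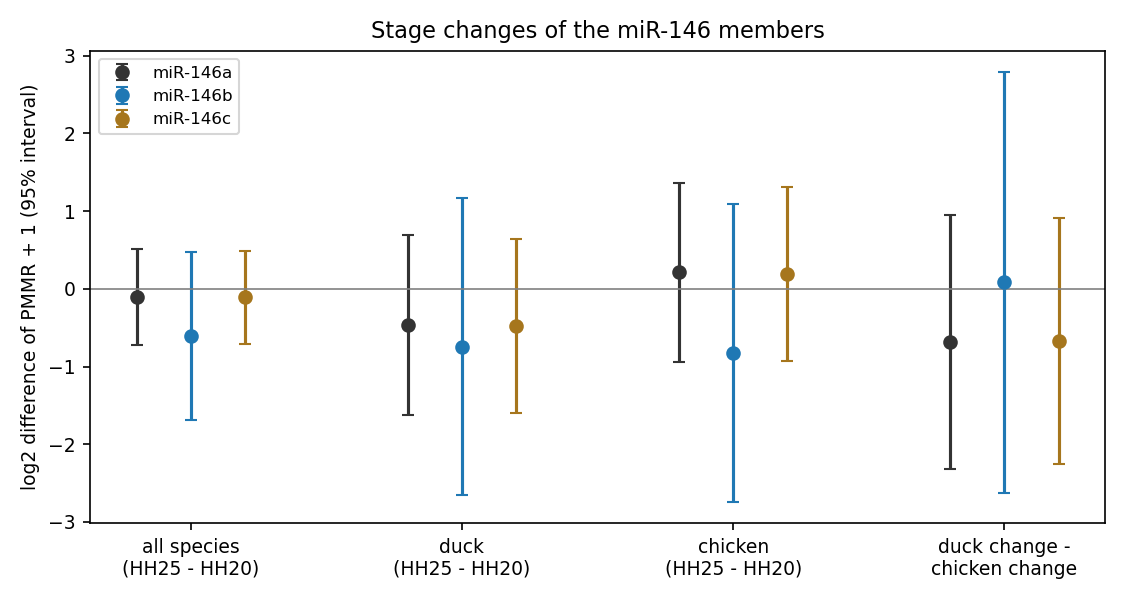
Estimated log2 difference of PMMR + 1 with its 95% interval for each member, for HH25 minus HH20 over all species, in duck and in chicken, and for the duck change minus the chicken change. Every interval spans 0, and the intervals of miR-146b are the widest of the 3 members in each contrast.

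The miRNAs whose levels were most like each member over the 10 samples were found by Pearson's r of log2(PMMR + 1), a description in which the samples share species and libraries. For miR-146a they were miR-10a (r = 0.85), miR-122 (0.80), miR-181b (0.79), miR-369-3p (0.79) and the star strand of miR-148a (0.78). All 5 stayed the closest by Spearman's rank correlation, with samples centred on their medians, and without the first chicken HH25 sample. Over the quail and chicken samples alone r was 0.92, 0.89, 0.57, 0.93 and 0.39, in the order given. The lowest and highest samples for miR-146a, first duck HH25 and second chicken HH25, were not left out, so r may rest on them. The first duck HH25 sample was also the lowest for miR-181b, miR-369-3p and the star strand of miR-148a. The second chicken HH25 sample was also the highest for miR-10a, miR-122 and miR-369-3p, at 72.6, 533 and 48.5 PMMR. miR-10a and miR-369-3p were scarce, whereas miR-181b had 1328 to 4556 PMMR in duck. miR-10a had 7.55 to 41.1 PMMR in duck, 22.5 and 24.9 PMMR in quail and 3.28 to 72.6 PMMR in chicken. Its lowest values rest on few reads, 12 in the first chicken HH25 sample and 24 in the first duck HH25 sample. In the same samples, in that order, miR-122 had 8 and 12 reads and miR-369-3p had 3 and 2.

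For miR-146b they were miR-27a (r = 0.97), miR-92a-2* (0.90), miR-23a (0.86), miR-1552-5p (0.85) and miR-24 (0.85). By Spearman's rank correlation 2 of these 5 stayed among the 5 closest. With samples centred on their medians 4 stayed, and without the first chicken HH25 sample 3 stayed. The study names miR-23a, miR-27a and a copy of miR-24 as members of a cluster, and reports them as higher in duck than in chicken and quail at both stages. miR-27a is 1 mismatch from miR-27b, with means over all samples of 908 and 2051 PMMR. miR-23a is 1 mismatch from miR-23b, with means of 227 and 350 PMMR. Whether these near copies shared reads was not tested. The samples fall into duck and the rest, so r is also given without duck. Over the 6 quail and chicken samples alone r was 0.98 for miR-27a, 0.76 for miR-92a-2* and 0.69 for miR-23a. It was 0.30 for miR-1552-5p and 0.27 for miR-24. The first chicken HH25 sample was the lowest of the 6 for miR-146b, miR-27a, miR-92a-2* and miR-23a, so these values may rest on it. Without it, r over quail and chicken alone was not computed. With duck but without that sample, r was 0.96 for miR-27a, 0.85 for miR-92a-2*, 0.79 for miR-23a, 0.86 for miR-1552-5p and 0.87 for miR-24. miR-27a had 1694 and 1915 PMMR in duck at HH25 and 1530 and 1417 PMMR at HH20. In quail it had 521 PMMR at HH25 and 434 PMMR at HH20, and in chicken 252 and 463 PMMR at HH25 and 473 and 376 PMMR at HH20. As for miR-146b, the first chicken HH25 sample was the lowest and no duck sample overlapped the others. miR-27a was picked for its likeness to miR-146b over these same samples, so nothing is read from these shared traits. Of all 186 entries 19, 10.2%, had every duck sample above every chicken sample.

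**Figure D5:**
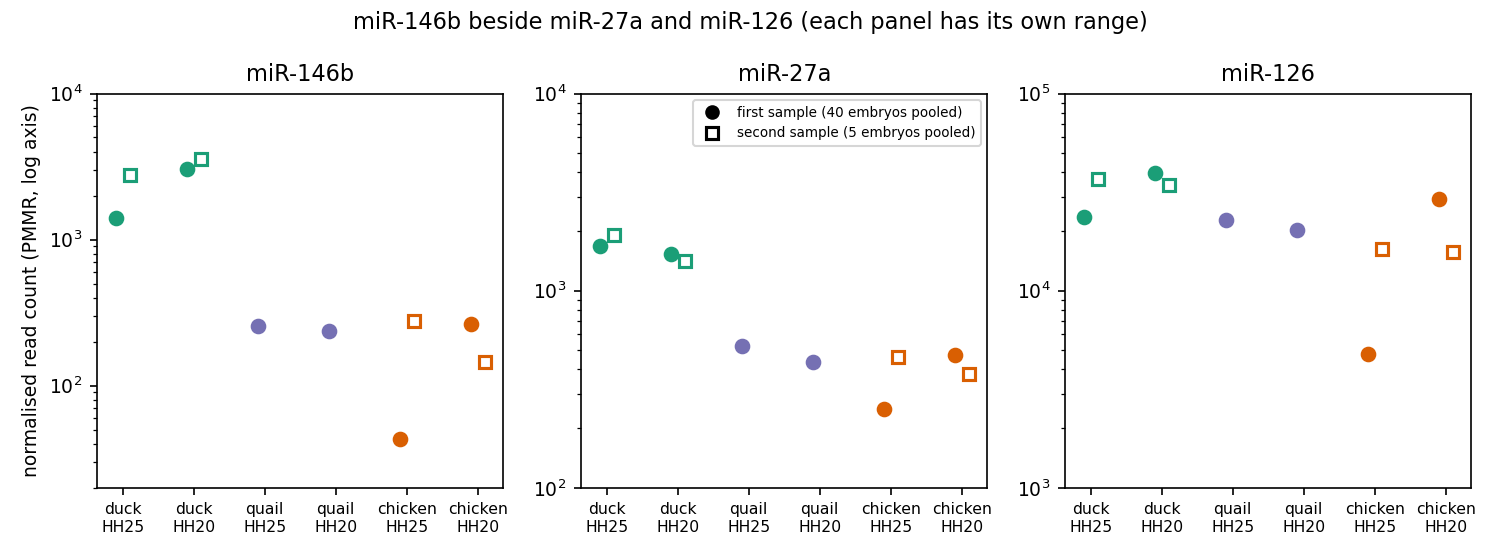
Normalised read count in PMMR on log axes, each panel with its own range, for miR-146b, for miR-27a, its closest match by Pearson's r, and for miR-126, the marker of endothelium. Points are samples as in the plot of member levels. The duck samples stand apart for miR-146b and miR-27a, both chosen by their values in these samples, so nothing is read from that. They overlap chicken for miR-126, where duck runs from 23690 to 39285 PMMR and chicken from 4782 to 29194 PMMR.

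Other miRNAs that Toll-like receptor or NF-kB signalling is known to raise in mammalian cells were read beside the miR-146 members. Of 8 listed, 5 were present, as 6 entries: miR-21, miR-132, miR-132*, miR-221, miR-222 and miR-223. Leaving aside star strands new to chicken, miR-9, miR-147 and miR-155 had no entry. miR-132 and miR-132* were scarce, at 8.75 to 44.9 PMMR and 5.71 to 16.2 PMMR over the samples. In the fit of duck minus chicken 0 of the 6 passed the limma test, with a median log2 difference of 0.28 against 0.20 over all entries. None of them had an unadjusted p under 0.05 (0 of 6, against 42 of 186 entries), and voom called 0 of them, against 22. In the fit of stage over all species 0 of the 6 passed, with a median of -0.46 against 0.06, 1 had an unadjusted p under 0.05, against 31 of 186 entries, and voom called 0 of them, against 8. miR-21, the most abundant of them, had 29563 to 38879 PMMR in duck, 29582 and 32998 PMMR in quail and 18764 to 62785 PMMR in chicken. The species overlapped for it, as they did for miR-146a.

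Markers of other cells that dissected FNP tissue could hold were read beside miR-146b. The 4 white blood cell entries, miR-142-3p, miR-142-5p, miR-150 and miR-223, summed to 217 to 691 PMMR in duck, 237 and 359 PMMR in quail and 76.3 to 333 PMMR in chicken. The endothelial entries, miR-126 and miR-126*, summed to 24781 to 40678 PMMR in duck, 21774 and 24499 PMMR in quail and 4992 to 30275 PMMR in chicken. The red blood cell entries, miR-144 and miR-451, summed to 186 to 256 PMMR in duck, 327 and 513 PMMR in quail and 99.5 to 465 PMMR in chicken. The 5 surface ectoderm entries summed to 417 to 1915 PMMR in duck, 753 and 1287 PMMR in quail and 62.6 to 561 PMMR in chicken. None of these sums separated all duck samples from all chicken samples. In the limma test of duck minus chicken 0 entries of each of these 4 lists passed, against 18 of 186, and voom called 0, against 22. An unadjusted p under 0.05 was reached by 1 of 4, 2 of 2, 1 of 2 and 2 of 5 entries, in the order given, against 42 of 186. This share was above that of all entries in each of the 4 lists. Their median log2 differences of duck minus chicken were above the 0.20 of all entries, at 1.05 for white blood cells, 1.17 for endothelium, 0.63 for red blood cells and 1.77 for surface ectoderm, the same direction as miR-146b. The muscle entries miR-1a and miR-1b summed to 147.3 to 393 PMMR in duck, 265 and 511 PMMR in quail and 43.6 to 346 PMMR in chicken, and miR-1b passed as higher in duck. miR-1b was scarce, with a mean of 9.09 PMMR over all samples. It is 1 mismatch from miR-1a, which had a mean of 238 PMMR. Leaving aside star strands new to chicken, miR-133 and miR-206 had no entry. The median log2 difference of duck minus chicken was 1.503 for these muscle entries, 0.67 for the smooth muscle entries and 1.34 for the mesenchyme entries. The mesenchyme entries, miR-199 and miR-199*, summed to 6277 to 12887.5 PMMR in duck. In chicken they summed to 315 PMMR in the first HH25 sample and to 8325, 8378 and 16961 PMMR in the others, so the duck and chicken ranges overlapped even without that sample. The medians of the lists are given with that sample only. The smooth muscle entries, miR-143 and miR-145 with their star strands, summed to 40416 to 113250 PMMR in duck, 46040 and 81401 PMMR in quail and 5208 to 55208 PMMR in chicken, and 0 of the 4 passed, by limma, by voom or at an unadjusted p under 0.05. In 6 of the 7 cell lists the lowest sum of all was in the first chicken HH25 sample. No marker entry was at 0 in any sample. Their part in the level of miR-146b was not tested.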

How the data were processed

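Total RNA of dissected FNP mesenchyme was made into small RNA libraries, size selected and sequenced by the authors, who assigned reads to known chicken and human mature miRNAs with miRanalyzer, allowing up to 2 mismatches. The deposited signal is PMMR, reads scaled to 1000000 reads left after adapter removal, for 186 miRNAs in 11 libraries. All values came out as whole reads at each library's total, within 0.1 read plus rounding. An entry had to exceed 15 PMMR in at least one sample to be listed. Levels of different miRNAs also carry ligation and sequence biases.

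The members and lists were chosen with earlier results of these data known. Samples were grouped by species and stage from the labels. Linear models of log2(PMMR + 1) were fitted with limma (version 3.58.1, R 4.3.3), its variance prior following mean level, and two-sided p-values were adjusted over the 186 entries by the Benjamini-Hochberg method. The stage fit over all species had 10 samples and a species term. The stage fits within chicken, within duck and between them had the 8 duck and chicken samples in 4 groups. The fit of duck minus chicken had the same 8 samples, with a species term and a stage term. Fold changes on this scale understate low miRNAs. limma voom on the recovered reads was an alternative. Scripts were tested on simulated data. Ratios, correlations and exact permutation tests used Python 3.11.15 with numpy 2.4.6, pandas 2.3.3 and scipy 1.17.1. Named miRNAs were the members, the 5 entries with the highest Pearson's r to miR-146a and to miR-146b, and the members of the fixed lists. Lists of muscle (miR-1, miR-133, miR-206) and smooth muscle (miR-143, miR-145) markers were also computed.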

Additional observations from a re-analysis of the deposited data

Results flagged for a closer look

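The first duck HH25 sample had 30769 PMMR of miR-146a, far from the other 3 duck samples, and exceeded Dixon's 95% limit when the 4 duck samples of both stages were taken as a group. Chance alone passes this limit in about 1 of 20 groups, and 10 were examined here. miR-146b at 1394 PMMR and miR-146c at 26167 PMMR were also lowest in that sample, without passing the limit, and its ratio of miR-146b to miR-146a, 4.53%, was the lowest in duck.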

How the results depend on the processing

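Each member had at least 159 reads in every sample. Values are log2 differences, and no member passed the test under any alternative except miR-146b in chicken without the second chicken HH25 sample, where 1 HH25 library was left. Where a value changed sign or call, the cause was not tested. Median-centring turned miR-146a over all species to 0.0025. Scaling to miRNA reads turned miR-146a and miR-146c in chicken to -0.022 and -0.039. For miR-146b, duck change minus chicken change, a pseudocount of 10 gave -0.0024 and voom -0.19. Without both first HH25 samples of chicken and duck, chosen after seeing the data, the values over all species were 0.22, 0.12 and 0.18 for miR-146a, miR-146b and miR-146c. In that setting miR-146a in duck was 0.0031, miR-146b in chicken 0.49 and its duck minus chicken change -0.75.

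Leaving out single samples moved miR-146a between -0.27 and 0.097 over all species, -0.18 and 0.60 in chicken, and -0.94 and 0.0031 in duck. It moved miR-146c between -0.26 and 0.076 over all species and between -0.16 and 0.55 in chicken, and miR-146b between -2.15 and 0.49 in chicken and between -1.24 and 1.40 for the duck minus chicken change. Calls for duck minus chicken over all miRNAs, 18 in full, ran from 6 to 42. They were 42 without the first chicken HH25 sample, 9 without the second chicken HH20 sample, and 6 or 7 without any other sample. Median-centring left 10.

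With sample number as a replicate block the calls were 24, miR-146b over all species stayed at -0.61 with a limma adjusted p of 0.465, and no call of a member changed. Deviations of samples of equal number correlated at 0.25 between stages in duck and 0.01 in chicken. Between duck and chicken they correlated at 0.20 at HH25 and 0.61 at HH20. Samples of equal number thus shared deviations at HH20, and the number goes with the size of the pool, 40 or 5 embryos. The main fits did not take the number as a pairing, and the fits with the block are given beside them.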
